A study of Homo sapiens with 3 samples.

Results

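The genes described here build ribosomes or belong to the nucleolus, where ribosomes are assembled. They were chosen by name from the platform annotation: symbols of the NOP, NOL, NOC, UTP, RRP and POLR1 families, plus 17 listed nucleolar genes. Pseudogenes and antisense or divergent transcripts were dropped. Of 14884 named genes, 42 symbols matched, 3 were dropped, and 39 protein-coding genes remained. Of the 17 listed genes, 11 were named in the annotation used here. The other 6, NPM1, DKC1, PES1, GNL3, PPAN and UBTF, were not analysed here. POLR1F and POLR1H were the only POLR1 genes named, and UTP18 and UTP25 the only UTP genes. NOP56, RRP8, RRP9 and NOL7 were not named either, so the role groups below are only partly covered.

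The cells were BE(2)-C, a human neuroblastoma line with MYCN amplification, grown in serum-containing medium. A culture received a control siRNA and the others received an siRNA against WDR5, either WDR5 siRNA-1 or WDR5 siRNA-2. All 3 were treated for 40 hours, and RNA levels were read on 1 Affymetrix HuGene-2_0-st array each. WDR5 is a shared subunit of histone methyltransferase complexes. With 1 array per condition no value has a replicate error, no test between conditions was possible, and a ratio describes only the arrays it is made from. Both WDR5 ratios use the same control array, so they are not independent of each other. Precision is limited by this number of arrays.

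The level of the targeted gene checks the labels. The log2 level of WDR5 was 9.46 on the control array and 7.90 on either WDR5 siRNA array, 2.95-fold lower. The value on the siRNA arrays was exactly the same, a kind of tie found throughout the table and described below. Of 11 adrenergic neuroblastoma markers, 9 were named, and all 9 passed the filter on low values described next. Of the 15 listed markers of Schwann cells, fibroblasts, leukocytes and endothelium, 6 were named and 3 (S100B, SOX10 and CD68) passed it. A gene was kept when its mean log2 level over the 3 arrays was at or above 6.78, the median of all named genes. That left 7442 genes and 38 of the 39 described here. NOC2L, at 6.11 on every array, was not kept, and NOL4L, at 6.90 to 7.08, lay just inside the limit. In bulk RNA, fewer expressing cells and less RNA per cell cannot be told apart.

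Ribosome assembly starts with RNA polymerase I, which transcribes a long precursor of the ribosomal RNAs. Small nucleolar ribonucleoproteins (snoRNPs) modify that precursor: box C/D particles methylate it and box H/ACA particles convert uridines to pseudouridines. A large processome then shapes the small subunit, while a separate set of factors cuts and folds the RNA of the large subunit. MYC family proteins are known activators of this programme, and many of its promoters carry the E-box CACGTG to which MYC and MAX bind.

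That motif was searched, on both strands, in the RefSeq promoter windows (GRCh38.p14), which run from 250 bases before to 50 bases after each annotated start. Windows were found for 34 of the 39 genes, all except NOL10, NOP58, RRP1B, RRP12 and BOP1. CACGTG, which reads the same on both strands, was present for 14 of the 34, or 41.2%. Among all 27305 genes with a window it was present for 8.77% (7.26% of the 35116 windows), and among 5751 other kept protein-coding genes for 13.1%. The match is a description of these letters and shows no binding. The windows around the motif are given for 7 of the 14 genes, chosen for their values below, with the E-box in capitals, from 12 bases before it to 12 bases after it.
DDX21 (chr10:68956604-68956633, + strand): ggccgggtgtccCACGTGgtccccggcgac
FBL (chr19:39846356-39846385, - strand): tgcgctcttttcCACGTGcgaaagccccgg
GAR1 (chr4:109815781-109815810, + strand): gggccagaggggCACGTGgcgccggtgagt
NAT10 (chr11:34105602-34105631, + strand): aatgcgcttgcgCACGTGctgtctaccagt
RCL1 (chr9:4792936-4792965, + strand): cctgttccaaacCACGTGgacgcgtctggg
BYSL (chr6:41921515-41921544, + strand): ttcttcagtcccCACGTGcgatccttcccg
NOL6 (chr9:33473894-33473923, - strand): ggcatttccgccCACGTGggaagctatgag

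Across all 14 genes the motif occurred at 16 positions, of which 14 began within 50 bases of the annotated start, 1 for each gene. The other two, both additional copies, began at -170 for NOP10 and at -89 for UTP18. Among the printed windows, counting the first transcribed base as 0, it began at -31 for DDX21 and at -15 for NAT10. For RCL1 it began at 4, for FBL at 6 and for NOL6 at 13. For BYSL it began at 28 and for GAR1 at 31.

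Across the whole set the differences from control were small with each WDR5 siRNA. The median log2 ratio of the 38 kept genes was 0.03 on the siRNA-1 array and 0.03 on the siRNA-2 array, against 0 and 0 for all 7442 kept genes. Exact ties with control made up 23.7% and 25.7% of the ratios of all kept genes, and 13.2% and 18.4% for the 38. The mean ratios were -0.02 and -0.03 for all kept genes, and 0.07 and 0.03 for the 38. Ratios of the 38 genes ran from -0.29 to 0.65 with siRNA-1 and from -0.46 to 0.35 with siRNA-2. Only NOL9, with siRNA-1, was at least 1.5-fold from control.

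**Figure D1:**
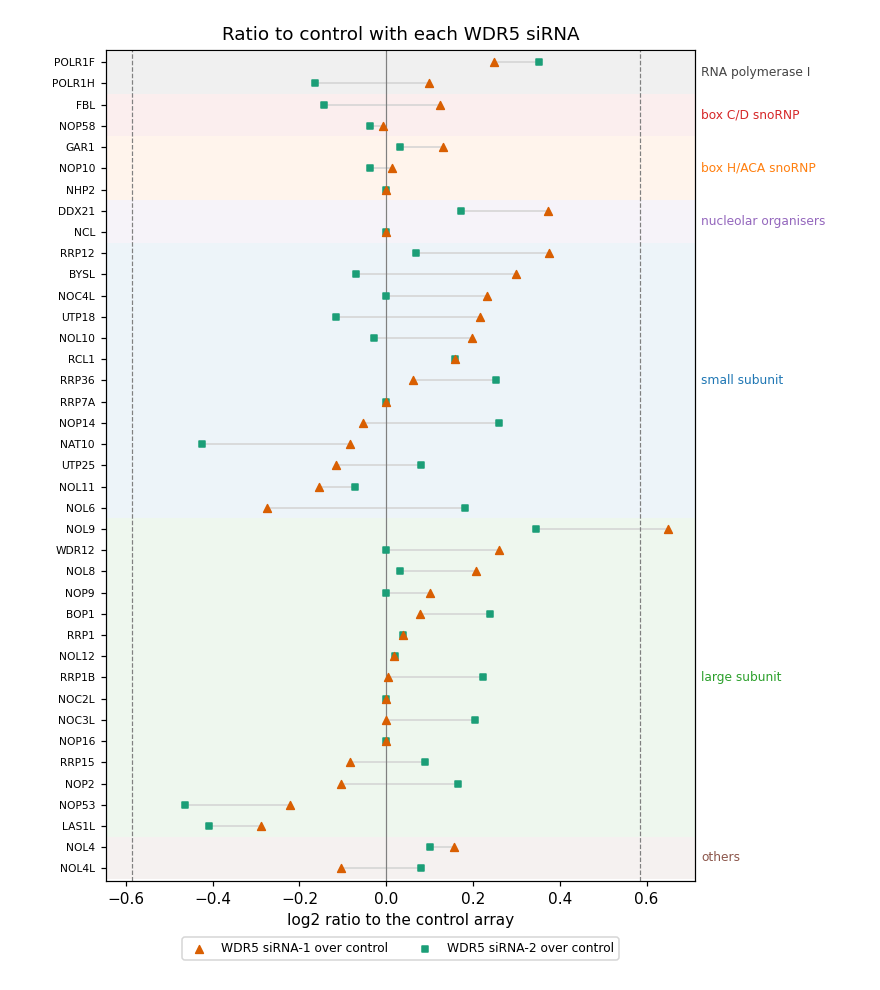
Log2 ratio to the control array for each of the 39 genes, with WDR5 siRNA-1 (triangles) and WDR5 siRNA-2 (squares); dashed lines mark 1.5-fold, shading marks the role groups, and there is 1 array per condition, so no error bars. NOL9 with siRNA-1 is the 1 point beyond a dashed line.

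Counts were read against all kept genes. With siRNA-1, 1 of 38 genes was at least 1.5-fold higher (2.24% of all kept genes were) and 0 were at least 1.5-fold lower (4.6% of all kept genes). With siRNA-2, 0 were higher by that much (background 2.19%) and 0 were lower (background 4%). With both siRNAs, 0 were at least 1.5-fold higher (background 0.618%) and 0 lower (background 0.847%). At these background shares a set of 38 genes would hold few or no such genes, so the counts were near the background.

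A smaller limit, a log2 ratio of 0.32 in size, gave more to compare. At that limit, RRP12, DDX21 and NOL9 were higher with siRNA-1 (3 of 38, background 7.9%) and 0 were lower (background 12%). With siRNA-2, POLR1F and NOL9 were higher (2 of 38, background 6.65%), and NOP53, NAT10 and LAS1L were lower (3 of 38, background 11.2%). NOL9 alone was higher by that much with both siRNAs (1 of 38, background 2.47%), and 0 genes were lower with both (background 3.78%). In all, 7 of 38 genes were that far from control with either siRNA, where 29.9% of all kept genes were.

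By direction alone, 22 of 38 were higher than control with siRNA-1 (background 38.1%) and 11 lower (background 38.2%). With siRNA-2, 20 were higher (background 32.6%) and 11 lower (background 41.6%). In the same direction with both siRNAs, 13 were higher (background 18%) and 5 lower (background 22.3%), counts that the shared control array also shapes. The other 20 comprised 12 genes with opposite signs, 4 with exactly 1 ratio of 0, and 4 with the same value on all arrays. Opposite signs were found for 25.2% of all kept genes. This background is not matched to the 38 in level or in ties. Of the 38, 32 also passed a filter at the 75th percentile of all named genes. Exact ties with control were fewer among the 38 (13.2% and 18.4%) than among all kept genes (23.7% and 25.7%). What this does to the shares by direction was not tested.

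Exact ties limit how far small ratios can be read. Of the 39 genes, 11 had the same deposited value on at least 2 arrays, and NCL, NHP2, RRP7A, NOP16 and NOC2L had 1 value on all 3. Among kept genes such full ties made up 10.5% of this set (4 of 38) and 14.9% of all genes (1107 of 7442). The step that produced the ties is not given in the sources used here, so a ratio of 0 is a tie in the deposited table rather than a measured absence of change.

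**Figure D2:**
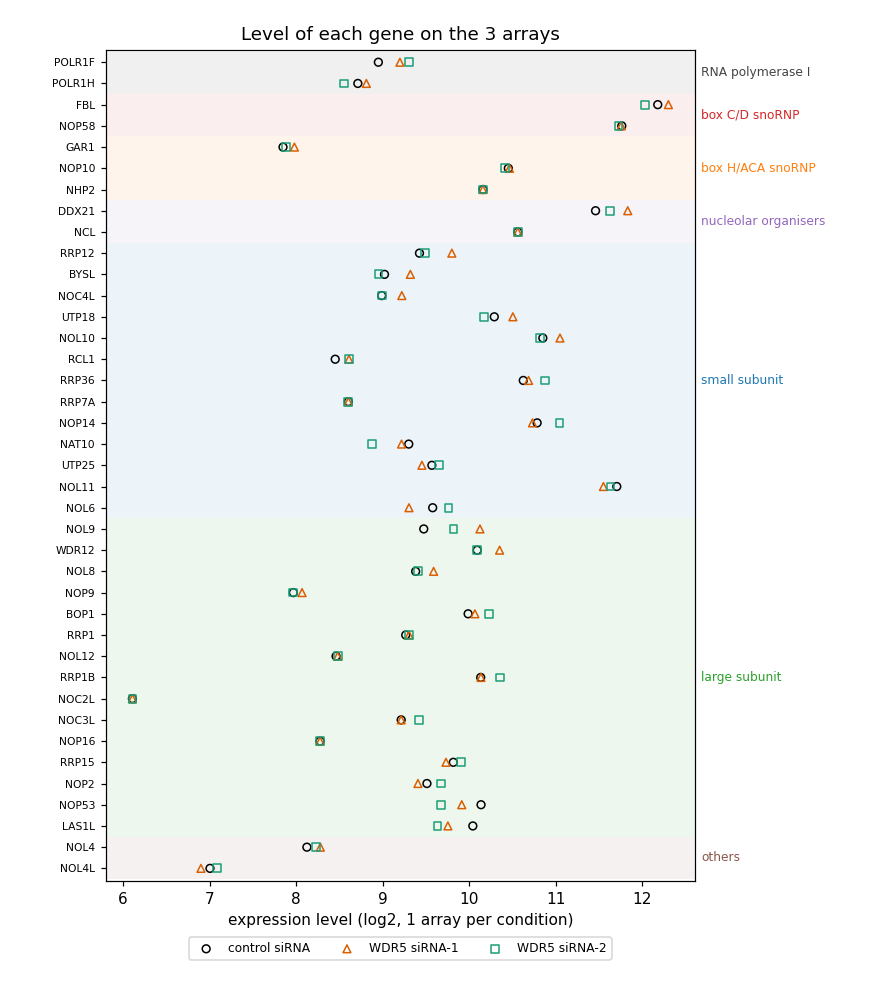
Log2 expression level of each gene on the control (circles), WDR5 siRNA-1 (triangles) and WDR5 siRNA-2 (squares) arrays, grouped by role, 1 array per condition. Overlapping symbols are near or exact ties, as for NCL and NHP2; positions of different genes should not be compared, since each probe set has its own response.

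RNA polymerase I was represented by a pair of subunits. POLR1F, the subunit through which the polymerase meets its initiation factor RRN3, stood at 8.95 with control, 9.20 with siRNA-1 and 9.30 with siRNA-2. POLR1F RNA was higher on both WDR5 siRNA arrays, 1.19-fold and 1.28-fold. POLR1H, a small subunit that acts in RNA cleavage and termination, stood at 8.71, 8.81 and 8.55 on the same arrays. Its siRNA arrays lay on opposite sides of control, with log2 ratios of 0.10 and -0.16. RRN3 itself, which is outside the name rule, had log2 ratios of 0.46 and -0.05.

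RNA levels of the box C/D genes named here, FBL and NOP58, stayed close to control. FBL (fibrillarin), the methyltransferase of these particles, stood at 12.18 with control, 12.30 with siRNA-1 and 12.04 with siRNA-2. The siRNA-1 array was 1.09-fold above control and the siRNA-2 array 1.11-fold below it. NOP58, a scaffold protein of the same particles, stood at 11.77, 11.76 and 11.73, so that the siRNA-2 array was 1.03-fold below control. The sign of its siRNA-1 ratio turned with another centring, to 0.04, and the siRNA-2 ratio of FBL shrank from -0.14 to -0.05 with quantile normalization.

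The box H/ACA proteins bind the pseudouridine synthase DKC1 in its particle. GAR1 stood at 7.85 with control, 7.98 with siRNA-1 and 7.88 with siRNA-2, so that it was 1.10-fold and 1.02-fold higher. NOP10 had log2 ratios of 0.01 and -0.04. NHP2 was tied at 10.16 on all 3 arrays. Over this group the log2 ratios to control ran only from -0.04 to 0.13.

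Nucleolin and DDX21 are abundant nucleolar proteins that bind the precursor RNA. NCL (nucleolin) was tied at 10.56 on all arrays. DDX21, an RNA helicase that acts in both transcription by RNA polymerase I and processing, stood at 11.46 with control, 11.83 with siRNA-1 and 11.63 with siRNA-2. DDX21 RNA was higher on both WDR5 siRNA arrays, 1.29-fold and 1.13-fold.

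The 13 genes of the small subunit pathway had a median log2 ratio of 0.06 for siRNA-1 and of 0 for siRNA-2. With siRNA-1, 7 were higher (background 38.1%) and 5 lower (background 38.2%). With siRNA-2, 6 were higher (background 32.6%) and 5 lower (background 41.6%). RRP12, a repeat protein of late subunit maturation and export, stood at 9.43 with control, 9.80 with siRNA-1 and 9.49 with siRNA-2, and so was apart from control mainly with siRNA-1, at 1.30-fold higher. RCL1, a processome protein related to RNA cyclases, had the highest shared ratio of the group, which is the smaller in size of a gene's ratios where both have the same sign: it stood at 8.45 with control and at 8.61 with each WDR5 siRNA, 1.12-fold higher. That equality is 1 of the exact ties.

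NAT10, the enzyme that acetylates cytidines of the small subunit RNA, had the lowest shared ratio of the group. It stood at 9.30 with control, 9.22 with siRNA-1 and 8.88 with siRNA-2, or 1.06-fold and 1.34-fold lower. Most of the difference lay in the siRNA-2 array. NOL11, which links transcription by RNA polymerase I to processing, was also lower with both siRNAs, with log2 ratios of -0.15 and -0.07.

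Other small subunit factors differed in sign between the siRNAs. BYSL (bystin), needed for late processing, had log2 ratios of 0.30 and -0.07. UTP18 and NOL10, both processome proteins, had ratios of 0.21 and -0.12 and of 0.20 and -0.03. NOL6, NOP14 and UTP25 went the other way, with ratios of -0.27 and 0.18, of -0.05 and 0.26, and of -0.11 and 0.08. RRP36 was higher with both (0.06 and 0.25), NOC4L was higher with siRNA-1 (0.23) and tied with control on the siRNA-2 array, and RRP7A was tied on all arrays at 8.60.

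The 14 kept genes of the large subunit pathway had a median of 0.01 for siRNA-1 and of 0.03 for siRNA-2. With siRNA-1, 8 were higher (background 38.1%) and 4 lower (background 38.2%). With siRNA-2, 9 were higher (background 32.6%) and 2 lower (background 41.6%). NOL9 and LAS1L had the highest and the lowest shared ratio of this group. They are partners in 1 complex that separates the large subunit RNAs: LAS1L cuts the internal spacer and NOL9 phosphorylates the new end. NOL9 stood at 9.48 with control, 10.13 with siRNA-1 and 9.82 with siRNA-2, or 1.57-fold and 1.27-fold higher. LAS1L stood at 10.04, 9.75 and 9.63 on the same arrays, or 1.22-fold and 1.33-fold lower. The pair was named as the extremes of the group, so lying on opposite sides of control with both siRNAs followed from that choice.

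In size NOL9 was not exceptional, since 140 of the 7442 kept genes had a ratio with siRNA-1 at least as high. TEX10, a scaffold protein of the larger complex that contains this pair, had log2 ratios of 0 and -0.12. To show the promoters of the pair, the 250 bases before each annotated start are printed with CTTCCGG, the reverse complement of the ETS-type motif CCGGAAG, in capitals.
NOL9 (chr1:6554514-6554763, - strand): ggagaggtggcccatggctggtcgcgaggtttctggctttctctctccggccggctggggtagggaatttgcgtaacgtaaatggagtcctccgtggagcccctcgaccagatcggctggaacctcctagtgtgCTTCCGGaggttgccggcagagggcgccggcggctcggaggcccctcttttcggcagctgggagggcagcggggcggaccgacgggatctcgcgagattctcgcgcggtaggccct
LAS1L (chrX:65534788-65535037, - strand): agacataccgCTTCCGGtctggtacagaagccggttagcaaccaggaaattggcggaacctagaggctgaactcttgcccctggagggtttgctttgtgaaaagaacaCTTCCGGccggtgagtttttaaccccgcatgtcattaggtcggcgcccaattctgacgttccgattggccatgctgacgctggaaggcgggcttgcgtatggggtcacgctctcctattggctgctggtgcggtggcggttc

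Neither window of the pair held the E-box, so the motifs do not overlap there. The motif CCGGAAG, on either strand, was found for 13 of the 34 genes with a window (38.2%), for 12.2% of all genes with a window (10.3% of the windows) and for 23.8% of the other kept protein-coding genes.

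Among the other large subunit factors, NOP53 was lower on both WDR5 siRNA arrays. Its protein is needed for late maturation of the large subunit RNA. NOP53 stood at 10.14 with control, 9.92 with siRNA-1 and 9.67 with siRNA-2, 1.17-fold and 1.38-fold lower. With LAS1L, NOP53 was 1 of the 2 kept large subunit genes lower with both siRNAs, where 22.3% of all kept genes were. WDR12 and BOP1 belong to the complex that also holds PES1: WDR12 had log2 ratios of 0.26 and 0, and BOP1 of 0.08 and 0.24. A second BOP1 probe set gave -0.06 and 0.03, the opposite sign for siRNA-1, so the direction of BOP1 there depends on the probe set. NOP2, an RNA methyltransferase, had ratios of -0.10 and 0.17.

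Of the remaining large subunit factors, NOC3L, which works with NOC2L, had log2 ratios of 0 and 0.20. The related genes RRP1 and RRP1B had ratios of 0.04 and 0.04 and of 0.00 and 0.22. NOL8 had ratios of 0.21 and 0.03, RRP15 of -0.08 and 0.09, and the RNA-binding protein NOL12 of 0.02 and 0.02. NOP9, counted here although it acts on small subunit precursors, had ratios of 0.10 and 0, and NOP16 was tied on all arrays at 8.28.

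NOL4 and NOL4L entered by name and are not established assembly factors. NOL4 stood at 8.12 with control, 8.28 with siRNA-1 and 8.23 with siRNA-2, 1.11-fold and 1.07-fold higher. NOL4L had log2 ratios of -0.10 and 0.08.

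**Figure D3:**
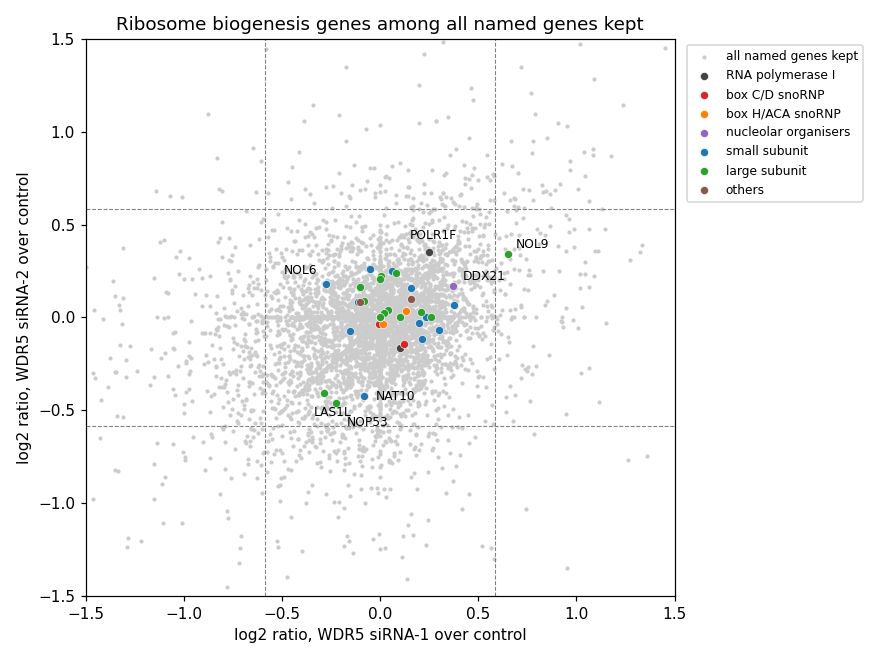
Log2 ratio of WDR5 siRNA-1 (x axis) against that of WDR5 siRNA-2 (y axis), both over the same control array, for the 38 kept genes coloured by role and for all 7442 kept genes in grey; dashed lines mark 1.5-fold and 25 genes lie outside the axes. The coloured points sit near the centre, with NOL9 to the right and LAS1L, NOP53 and NAT10 below.

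The siRNAs were also compared directly. The median log2 ratio of siRNA-1 over siRNA-2 was 0.02 for the 38 genes and 0 for all kept genes. At 1.5-fold, 0 genes were higher with siRNA-1 (background 4.21%) and 0 lower (background 4.65%). At a log2 ratio of 0.32 in size, BYSL, NAT10 and UTP18 were higher with siRNA-1 (3 of 38, background 12.7%), at 1.29-fold, 1.27-fold and 1.26-fold. NOL6 was lower with siRNA-1 (1 of 38, background 11.3%), at 1.37-fold. By any amount, 19 of 38 were higher (background 43.1%) and 13 lower (background 35.5%).

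The ratios were also set out by presence of the E-box. The 14 genes with CACGTG, all kept, had a median log2 ratio of 0.07 for siRNA-1 and of 0.06 for siRNA-2, with ranges of -0.27 to 0.37 and -0.42 to 0.26. The 19 kept genes with a window but no CACGTG had medians of 0.02 and 0, with ranges of -0.29 to 0.65 and -0.46 to 0.35. With siRNA-1, 8 of the 14 were higher, 5 lower and 1 tied, and 10 of the 19 were higher, 5 lower and 4 tied. The background was 38.1% higher, 38.2% lower and 23.7% tied. With siRNA-2, 9 of the 14 were higher and 5 lower, and 8 of the 19 were higher and 4 lower (background 32.6% and 41.6%). The other 7 of the 19 were exact ties with control, against 0 of the 14, and 25.7% of all kept genes were such ties. The ranges overlapped almost throughout, but no test of the difference was made, so whether the sets differ is not known.

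A list of 94 further ribosome assembly genes outside the name rule was set beside these. Of them 74 were named and 73 kept, with a median log2 ratio of 0.03 for siRNA-1 and of 0.00 for siRNA-2. By any amount 44 of 73 were higher with siRNA-1 (background 38.1%) and 12 lower (background 38.2%). With siRNA-2, 37 were higher (background 32.6%) and 20 lower (background 41.6%). At 1.5-fold, 0 passed with siRNA-1 (background 2.24% higher and 4.6% lower). With siRNA-2, 1 was higher (background 2.19%) and 0 lower (background 4%). The gene that passed was HEATR1, a processome protein that also supports transcription by RNA polymerase I, which was 1.49-fold and 1.71-fold higher. NIFK, a nucleolar RNA-binding protein, was 1.40-fold and 1.28-fold higher, and PNO1, a small subunit factor, 1.35-fold and 1.43-fold. EXOSC9, a subunit of the RNA exosome, was 1.31-fold and 1.33-fold lower. These 4 genes, RRN3 and TEX10 were picked from the list with their values known.

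At the RNA level, genes for the proteins of the ribosome itself gave other values than genes for the factors that assemble it. Of cytoplasmic ribosomal protein genes, 45 were named here and 44 kept. At 1.5-fold, 6 of the 44 were lower with both siRNAs, against 0 of the 38 genes described here and 0.847% of all kept genes. By a log2 ratio of 0.32 or more, 16 of the 44 were lower with both. That compares with 0 of the 38 and 3.78% of all kept genes. The median log2 ratios of the 44 were -0.30 and -0.35. The difference between the lists was not tested, and probes for ribosomal proteins can also read their many near-identical pseudogenes.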

How the data were processed

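Total RNA from 3 cultures was read on 1 array each. The deposited table holds 53617 probe sets, and its values, made by the authors, were read as log2 from their range; the file states no scale, so every fold rests on that reading. The submitters' processing notes name MAS5 without its role; background correction, normalization and summarisation are not given in the sources used here. Array medians were 5.79 to 5.81 and no further scaling was applied.

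Probe sets (16098 with 1 gene symbol) were named through the platform annotation; Entrez identifiers gave biotypes from the GRCh38.p14 RefSeq table. Of several probe sets the one with the highest mean was used. Log2 ratios were differences between arrays, computed with pandas 2.3.3 and Python 3.11.15, and a gene was counted at 1.5-fold. No test was possible with 1 array per condition. The counting was run on simulated data with 200 planted changes among 7442 genes, all larger than the 1.5-fold limit and without exact ties. Its recovery of 100% with 0 false calls checks the code, not the error of these arrays. All members may be named, with per-array values for those past 1.5-fold, those with the highest or lowest shared ratio of each role group, and a fixed set of nucleolar proteins; other values on each array were chosen after they were seen. The members and lists were chosen with earlier results of these data known. Alternatives covered scaling, probe sets, filter, fold, symbols and summary.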

Additional observations from a re-analysis of the deposited data

How the results depend on the processing

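No paired analysis was possible because each condition has 1 array, and for the same reason no replicate could be left out. The medians below are log2 ratios given in the order siRNA-1 over control, siRNA-2 over control and siRNA-1 over siRNA-2, against 0.0282, 0.0261 and 0.0152 as reported. Quantile normalization gave 0.0453, 0.0760 and -0.00846, so the last changed sign, and centring on the median of named genes gave 0.0725, 0.0545 and 0.0311. No filter gave 0.0187, 0.0210 and 0. The mean of probe sets moved the first to 0.0154 and the 75th percentile filter moved the second to 0.0156. The list mean gave 0.0670 for the first and 0.0373 for the last. In alternatives added after the data were seen, leaving out members tied on all arrays gave 0.0702, 0.0348 and 0.0526, and leaving out NOL4 and NOL4L moved the second to 0.0105. Each of these medians stayed within 0.1 of 0. Counts of members past the limit moved only with the fold: at a log2 ratio of 0.32 they were 3 higher with siRNA-1, 2 higher and 3 lower with siRNA-2, 1 higher with both, and 3 higher and 1 lower for siRNA-1 over siRNA-2. At 2-fold the 1 gene higher with siRNA-1 became 0. The WDR5 ratios, -1.56 each, became -1.55 and -1.51 with quantile normalization and -1.52 and -1.53 with centring. Among 11 named members, NOP58 with siRNA-1 changed sign, from -0.0065 to 0.0378, with centring. Of 128 ratios of these members under alternatives, 9 moved by over 1.5 times, all of them with another scaling. With centring the others were GAR1 with siRNA-2 (0.0319 to 0.0604), NAT10 with siRNA-1 (-0.0835 to -0.0392) and NOP58 with siRNA-2 (-0.0369 to -0.00845). With quantile normalization they were FBL (-0.144 to -0.0534), GAR1 (0.0319 to 0.108), NOL4 (0.101 to 0.169) and NOP58 (-0.0369 to -0.00856), each with siRNA-2, and NOP58 with siRNA-1 (-0.00646 to -0.0114). The tied ratios of NCL, 0 as reported, became -0.0200 and -0.00596 with quantile normalization and 0.0443 and 0.0284 with centring. The cause of these moves was not tested. Without counts or replicates, depth and error are unknown, and signal over background was not assessed.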

Other observations

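The transcripts that matched the name rule but were dropped gave these values. NOL4L-DT, a divergent noncoding transcript, stood at log2 levels of 5.77 with control, 5.85 with siRNA-1 and 5.77 with siRNA-2. RRP7BP, a transcribed pseudogene related to RRP7A, stood at 8.17, 8.17 and 8.15, and NOC2LP2 was tied at 8.52 on all arrays. Probes for such near-identical copies can read each other.

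NOL10 also had a second probe set, with a lower mean, which was tied at 6.10 on all arrays.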
